A study of Bos taurus with 53 samples.

Results

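The 8 genes described here encode the peroxisome proliferator-activated receptors (PPARA, PPARD and PPARG), the retinoid X receptors (RXRA, RXRB and RXRG) and a pair of coactivators of the PGC-1 family (PPARGC1A and PPARGC1B). They were taken by gene symbol, and 8 of 8 were found among the 24596 features of the count table. Messenger RNA was sequenced from cattle embryos recovered on day 14, each dissected into the embryonic disc, from which the fetus forms, and the extraembryonic tissue around it. The embryos were made in vitro from oocytes matured in 1 of 3 media. CONTROL medium held neither fatty acids nor solvent. BASAL medium held 23 µM palmitic, 28 µM stearic and 21 µM oleic acid in 0.45% ethanol. HIGH PA medium differed from it only in palmitic acid, at 150 µM. All 3 kinds of embryo shared the same fertilisation and culture and were transferred as blastocysts into recipient cows. From 30 embryos of 7 cows came 53 libraries. Of the 23 discs, 12 were BASAL, 8 were HIGH PA and 3 were CONTROL; of the 28 extraembryonic samples these numbers were 14, 10 and 4. A further 2 embryos of the HIGH PA group were sequenced undissected. Embryos were also scored as tubular, ovoid or spherical. They were of both sexes, labelled for all but 1 embryo. The 3 CONTROL discs were all male, the HIGH PA discs were mostly male and the BASAL discs were of both sexes, so sex moved with medium. The CONTROL embryos all came from a single flush of cow813, which also carried BASAL and HIGH PA embryos, so that the CONTROL medium and that flush cannot be told apart. The 30 embryos fall into 15 combinations of cow and medium, each treated here as 1 flush of the uterus, and p-values measure the spread between embryos as if each were independent.

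PPARs are ligand-activated transcription factors that bind fatty acids and their oxygenated derivatives. They act on DNA as heterodimers with an RXR, which also pairs with retinoic acid, thyroid hormone, vitamin D and oxysterol receptors. PPARA is best known for driving fatty acid oxidation in liver, PPARD is widely expressed, and PPARG drives lipid storage in fat cells and is required in the trophoblast of the mouse placenta. PGC-1 proteins bind to PPARs and to the oestrogen-related receptors and raise the transcription of mitochondrial genes. At the stage studied, the ruminant embryo is elongating from an ovoid to a tubular shape, and its trophectoderm holds many lipid droplets.

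Depth, counted as reads in exons, was 119116 to 6167850 per disc library and 340016 to 19533821 per extraembryonic library, apart from 1 disc of 6814 and 1 extraembryonic sample of 9810 reads. Those last libraries are left out of every summary of levels and kept in the fits. A level is given as CPM, the exon reads of a gene per 1000000 exon reads of its library. The summed level of epiblast markers had a median of 1131 CPM in discs and 78.2 in extraembryonic tissue, and 1 disc (BASAL replicate 12) had only 95.2. Trophectoderm markers summed to a median of 14795 CPM in discs and 20576 in extraembryonic tissue, so the disc samples held RNA of these markers too. Hypoblast markers summed to a median of 1552 CPM in discs and 643 in extraembryonic tissue. Markers of maternal and blood cells stayed at or under 42.9 CPM in sum. RNA came from the disc with the micro version and from extraembryonic tissue with the mini version of the same kit, and fewer cells of a type cannot be told apart from less RNA per cell in such bulk samples. The column names also give a sequencing lane. Lanes 1 and 2 held 20 of the 22 discs, whereas lanes 4 and 8 held only extraembryonic samples (16), so that lane moved with tissue.

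The genes lie apart in the genome (UMD3.1), except that PPARD and RXRB share chromosome 23. PPARA spans 117151548 to 117233112 of chromosome 5, PPARD spans 9340954 to 9353750 of chromosome 23, and PPARG spans 57366996 to 57489590 of chromosome 22. RXRA lies at 105990343 to 106015000 of chromosome 11, RXRB at 7320232 to 7326944 of chromosome 23 and RXRG at 3576687 to 3636911 of chromosome 3. PPARGC1A lies at 44854112 to 44960668 of chromosome 6 and PPARGC1B at 63153226 to 63182560 of chromosome 7. For each of the 8 genes the uniquely placed exon reads equalled all exon reads, so none was split with a near-identical copy.

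Each family had a leading member in both tissues. To compare genes, CPM was divided by the exon length of the gene model, giving reads per kilobase and 1000000 reads (the models run from 1369 bases for PPARD to 6460 for PPARGC1A, and how much of each transcript they cover was not tested). On that scale RXRA was highest, with a median level of 21.6 in discs (range 14.4 to 31.3, n = 22) and 23.6 in extraembryonic tissue (4.61 to 36.3, n = 27). PPARD, the broadly expressed PPAR, came next, at 15.9 (0 to 25.7) and 16.6 (6.48 to 26.3). Their ranges overlapped, so the order of these genes does not hold for every library.

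RXRB, a receptor found in most tissues, had a median level per length of 9.94 in discs (7.56 to 15.1) and 8.99 in extraembryonic tissue (5.95 to 11.7). PPARGC1B had 5.24 (0 to 9.60) and 6.03 (2.21 to 12.8). PPARG had 3.27 in discs (0 to 7.14) and 8.95 in extraembryonic tissue (0.499 to 22.0). Thus PPARG stood below PPARGC1B in the median disc and about level with RXRB in the median extraembryonic sample, with overlapping ranges in each case. PPARGC1A, the better known coactivator of muscle and brown fat, had only 0.559 (0 to 1.75) and 0.960 (0 to 1.76).

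PPARA and RXRG were close to absent. PPARA had 35 reads among 53007671 in discs, in 13 of 22 libraries, and 17 among 208096954 in extraembryonic tissue, in 10 of 27. RXRG, a receptor of muscle and brain, had 1 read in discs and 5 in extraembryonic tissue. Neither passed the filter on low counts, so 6 of 8 genes were tested in each comparison of exon reads.

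**Figure D1:**
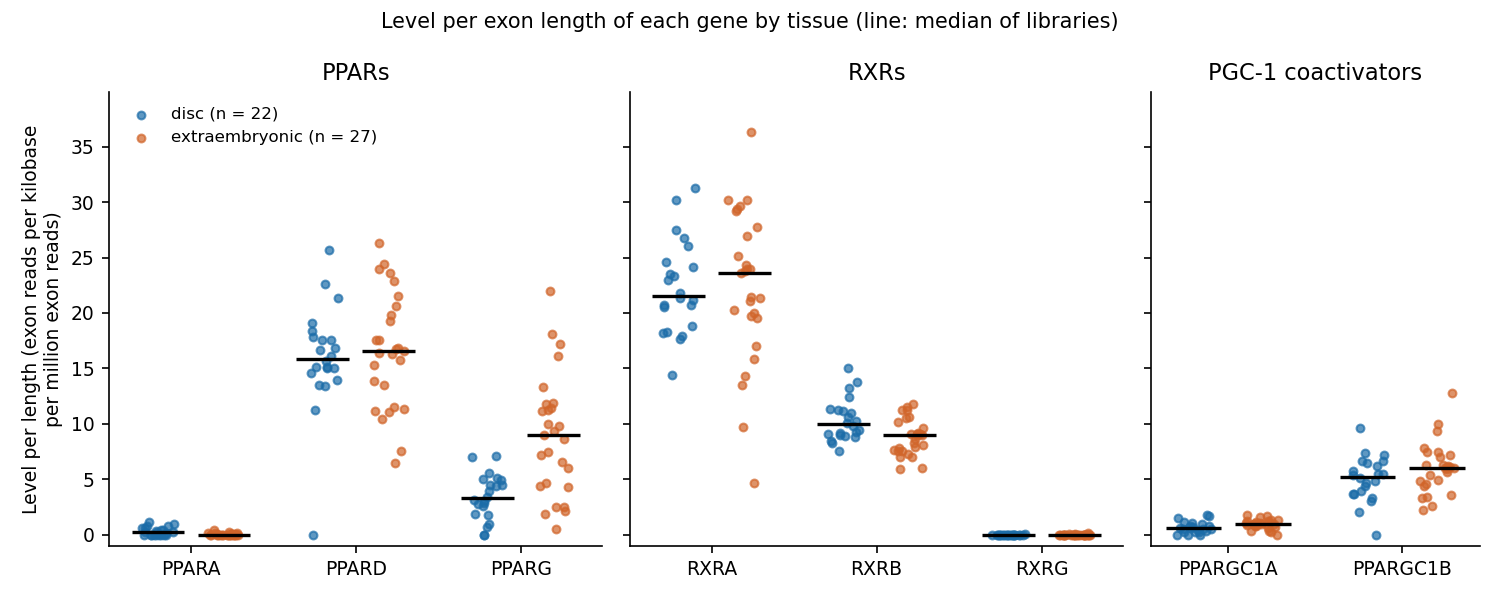
Level per exon length (vertical axis, exon reads per kilobase and 1000000 exon reads) of the 8 genes in each disc (blue, n = 22) and extraembryonic library (orange, n = 27), with lines at the medians. RXRA and PPARD lie highest, PPARG is the gene whose points move up most from disc to extraembryonic tissue, and PPARA and RXRG lie at or near 0.

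Within a library, the PPAR pool was mostly PPARD. PPARD made up a median of 82.8% of the summed PPAR level per length in discs (60.8 to 100%, n = 21 with any PPAR read) and 62.0% in extraembryonic tissue (40.8 to 94.6%, n = 27). The PPARG share was 16.8% (0 to 37.8%) and 38.0% (2.99 to 59.2%), so either gene could lead in an extraembryonic library. RXRA made up 68.5% of the RXR pool in discs (52.2 to 76.9%, n = 22) and 73.2% in extraembryonic tissue (43.4 to 79.9%, n = 27), and nearly all of the rest was RXRB. PPARGC1B made up 89.9% of the PGC-1 pair in discs (68.1 to 100%, n = 21) and 85.0% in extraembryonic tissue (73.5 to 100%, n = 27).

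Extraembryonic tissue was compared with the disc of the same embryo to see which receptors differ between the lineages. PPARG and PPARGC1A were higher in extraembryonic tissue, while PPARD, RXRA, RXRB and PPARGC1B did not pass the test. Of all genes tested, 55.7% were called (6847 of 12291 at an adjusted p under 0.05 in edgeR's quasi-likelihood test), so 2 called of 6 tested members is a smaller share than the background. Higher calls made up 24.2% and lower calls 31.5% of all genes, against 2 and 0 of the 6 members. Calls were 2976 higher and 3871 lower, 3874 and 3615 with DESeq2, and 2174 and 4349 with DESeq2's size factors in edgeR, which moved the median difference of all genes from -0.02 to -0.11.

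PPARG had 0, 6.76 and 14.7 CPM in discs (lowest, median and highest of 22) and 1.03, 18.5 and 45.5 CPM in extraembryonic tissue (27). In 17 of the 27 extraembryonic libraries it was above every disc, and the lowest extraembryonic values lay within the disc range. It was higher in extraembryonic tissue in 19 of 22 embryos, by 1.53 on the log2 scale (SE 0.236, adjusted p = 2.43e-06). Intron reads, which come mostly from unspliced transcripts, gave nearly the same difference for PPARG, 1.59 (SE 0.281, adjusted p = 5.43e-06), where 34.4% of 8939 genes were called. The call was made in BASAL, HIGH PA and CONTROL embryos alone, with log2 differences of 1.47, 1.71 and 1.31.

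Lane moved with this difference. With lane as a term, which leaves few embryos to separate it from tissue, the PPARG difference was 0.20 (SE 0.764, adjusted p = 0.983) and 392 genes were called in all. In lane 3, which held both tissues, PPARG was at 10.4 and 14.7 CPM in the 2 discs, both of tubular embryos. The 8 extraembryonic libraries of that lane had 4.45 to 23.1 CPM, so the tissues overlapped there. Shape entered this overlap, as 5 ovoid libraries had 4.45 to 9.52 CPM and 3 tubular ones had 12.3 to 23.1. The PPARG median was 20.4 CPM in the 12 extraembryonic libraries of lane 4, of which 9 were tubular, and 36.5 in the 4 of lane 8, all tubular. Tissue and lane can therefore hardly be told apart for PPARG, and the same holds for the other differences between tissues given here.

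PPARGC1A had 0, 3.61 and 11.3 CPM in discs and 0, 6.20 and 11.4 CPM in extraembryonic tissue. The groups overlapped almost fully, and the difference appeared within embryos, 15 of 22 being higher in extraembryonic tissue. The log2 difference was 0.74 (SE 0.259, adjusted p = 0.0155). It was called in CONTROL embryos alone (1.54, adjusted p = 0.0141) but not in BASAL embryos alone (0.69, adjusted p = 0.135) or HIGH PA embryos alone (0.54, adjusted p = 0.368), nor with lane as a term (0.14, adjusted p = 0.997). Adjusted p-values over the alternatives ran from 0.00146 to 0.997.

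**Figure D2:**
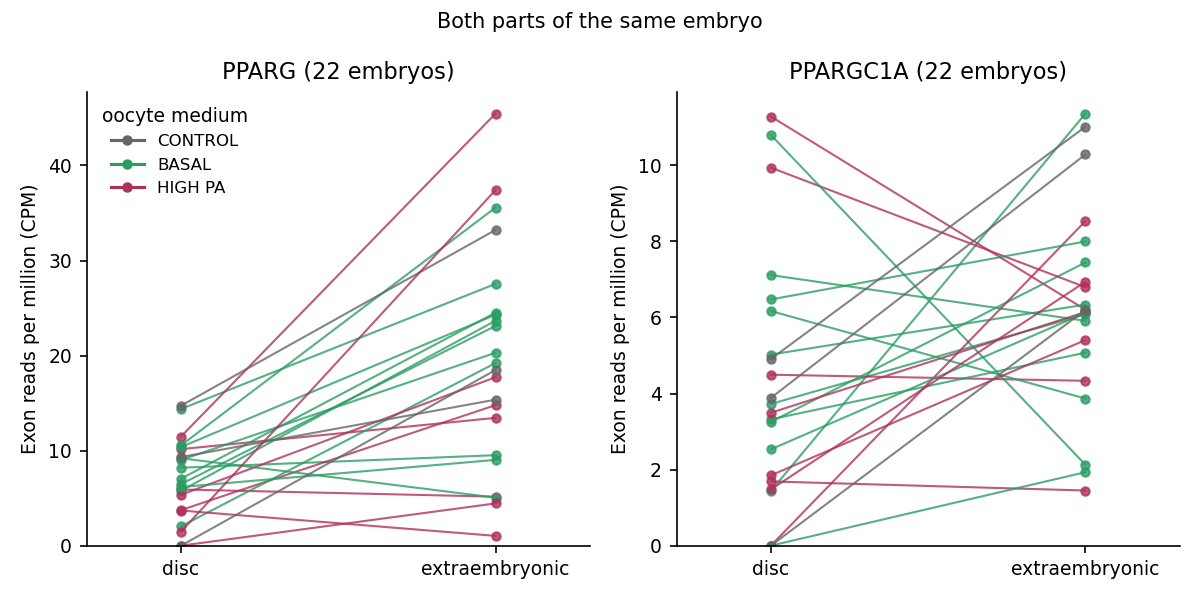
PPARG (left) and PPARGC1A (right) in CPM in the disc and the extraembryonic tissue of the same embryo, 22 embryos each, coloured by oocyte medium. For PPARG 19 of 22 lines rise towards extraembryonic tissue, and for PPARGC1A 15 of 22 do.

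The remaining 4 tested genes did not pass the test. PPARGC1B differed by 0.31 (95% interval 0.00 to 0.61, adjusted p = 0.0797), and was higher in extraembryonic tissue in 11 of 22 embryos. It was called with DESeq2 (0.38, adjusted p = 0.0140) and without BASAL disc replicate 12 (0.37, adjusted p = 0.0261). PPARD, with 0, 21.7 and 35.2 CPM in discs and 8.87, 22.7 and 36.0 in extraembryonic tissue, differed by 0.15 (-0.10 to 0.41) on the log2 scale, and by -0.17 with lane as a term. RXRA had 22.2, 33.2 and 48.2 CPM in discs and 7.10, 36.3 and 55.9 in extraembryonic tissue, a log2 difference of 0.11 (-0.13 to 0.35). RXRB was lower in extraembryonic tissue in 17 of 22 embryos as CPM, but its fitted difference after trimmed-mean scaling was -0.01 (-0.20 to 0.17), and it was 0.06 with DESeq2.

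PPARA was the only PPAR with a lower median CPM in extraembryonic tissue, at 0.0938 CPM on average (SD 0.178, n = 27) against 0.605 (SD 0.689, n = 22) in discs. It was lower there in 13 of 22 embryos, higher in 4 and at 0 in both parts of the other 5. Fitted without the filter on low counts, where 46.2% of 17103 genes were called, it differed by -2.34 (SE 0.582, adjusted p = 0.00148). Intron reads without a filter gave -2.12 (SE 0.598, adjusted p = 0.00315), with 23% of 17666 genes called. These values rest on 52 exon and 44 intron reads over all libraries.

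Ovoid and tubular embryos were compared within each tissue, with medium and sex as terms, because shape marks how far elongation has gone. In extraembryonic tissue PPARG was the member that passed the test, being lower in ovoid embryos. Of all genes, 11.4% were called there (1349 of 11880), 706 higher (5.94%) and 643 lower (5.41%) in ovoid embryos; DESeq2 gave 367 and 630, and its size factors in edgeR 642 and 434. One of 6 tested members was therefore close to the background share.

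PPARG had 1.03, 9.03 and 23.7 CPM in ovoid extraembryonic samples (lowest, median and highest of 9) and 12.3, 21.8 and 45.5 CPM in tubular ones (16). The 2 spherical samples had 3.74 and 8.82 CPM. Of the 9 ovoid samples 6 were below every tubular sample, as were both spherical ones, and the other 3 ovoid samples lay within the tubular range.

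The log2 difference of ovoid from tubular embryos was -1.33 (SE 0.337, adjusted p = 0.0188). This call depended on how the samples were grouped. With cow as a block it was -0.67 (SE 0.476, adjusted p = 0.445), and no gene of the table was called. With lane as a term and the spherical embryos left out it was -0.64 (SE 0.247, adjusted p = 0.167), again with 0 genes called. In BASAL embryos alone it was -1.01 (adjusted p = 0.104), and in HIGH PA embryos alone -1.86 (adjusted p = 0.258). Without cow07, cow66 or cow813 it was -1.55, -1.21 and -1.35, with adjusted p-values of 0.0726, 0.124 and 0.192. Over all alternatives the difference stayed below 0, from -1.86 to -0.64, with adjusted p-values from 0.0106 to 0.445.

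Both shapes were recovered from the same flush 4 times. For cow07 in BASAL medium, PPARG was at 9.52 CPM in the ovoid and 27.5 in the tubular embryo. For cow07 in HIGH PA medium the 2 ovoid embryos had 5.16 and 14.8 CPM, averaging 9.97, against 13.4 in the tubular one. For cow12 in BASAL medium the ovoid embryo had 23.7 CPM and the 2 tubular embryos averaged 22.3, and for cow813 in CONTROL medium the values were 22.9 and 22.4. The ovoid mean was thus lower in both flushes of cow07 and about level in the others. In the HIGH PA flush of cow07, however, 1 of the 2 ovoid embryos was above the tubular one.

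Sequencing lane and a mark in the column names moved with shape. In lane 3 PPARG was at 4.45 to 9.52 CPM in 5 ovoid and at 12.3 to 23.1 in 3 tubular samples, which did not overlap. In lane 4 the 3 ovoid samples (14.8 to 23.7 CPM) lay within the 9 tubular ones (13.4 to 33.2), and the 4 samples of lane 8, all tubular, held 27.5 to 45.5. Columns of 7 extraembryonic samples carry an added digit 2 of unstated meaning: 5 of 9 ovoid, 1 of 2 spherical and 1 of 16 tubular.

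Mitochondrial transcripts took a median of 8.99% of exon reads in the 7 marked libraries and 3.46% in the other 20. The marked ovoid samples had 4.45 to 14.8 CPM of PPARG and the unmarked ones 1.03 to 23.7 (n = 4), while the marked tubular sample had 19.2. With the mark as a term the difference was -1.18 (SE 0.385, adjusted p = 0.134). The part of lane or of the mark in the difference was not tested further.

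**Figure D3:**
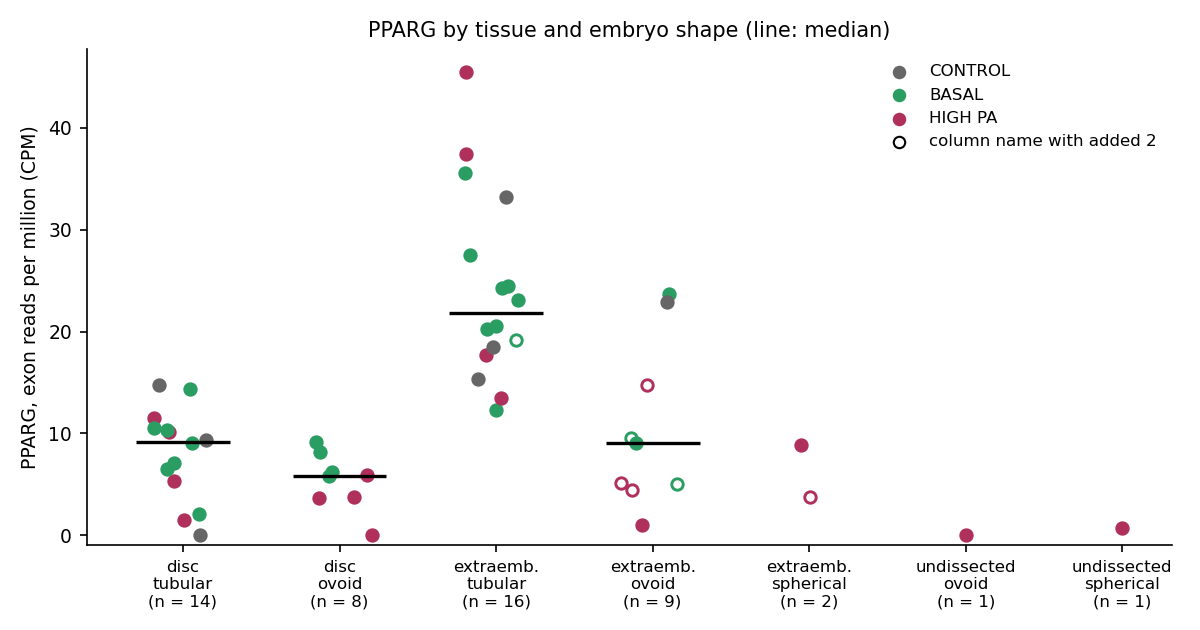
PPARG in CPM by tissue and embryo shape, each point a library coloured by oocyte medium, open where the column name carries an added 2; lines are medians of groups over 2. Tubular extraembryonic samples lie between 12.3 and 45.5 CPM, 6 of 9 ovoid ones lie below that range, and the undissected embryos lie at 0 and 0.711.

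In discs the same comparison called 0 of 11040 genes (0%; 806 had an unadjusted p under 0.05, and DESeq2 called 16). PPARG had 0, 5.85 and 9.20 CPM in ovoid discs (8) and 0, 9.17 and 14.7 in tubular ones (14), with full overlap, and a log2 difference of -0.51 (-1.28 to 0.26, adjusted p = 0.800). In each of the 3 flushes with discs of both shapes the ovoid disc was lower. The difference of the shape effect between the tissues was -0.99 for PPARG (SE 0.493, unadjusted p = 0.0550, adjusted p = 0.366), so a shape effect particular to extraembryonic tissue was not shown.

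The other members followed shape less clearly. In extraembryonic tissue RXRB had 21.0, 28.5 and 32.9 CPM in ovoid and 16.6, 22.0 and 29.6 CPM in tubular samples, with 3 ovoid samples above every tubular one. The log2 difference of 0.28 (SE 0.0941) just missed the threshold (adjusted p = 0.0547), and it was called without cow12, cow13 or cow72 (adjusted p = 0.0449, 0.0138 and 0.0298). Over all alternatives the adjusted p for RXRB ran from 0.0138 to 0.486, the highest being with cow as a block. PPARGC1A differed by -0.55 (-1.08 to -0.01, adjusted p = 0.144), with 1.45, 5.05 and 8.54 CPM in ovoid against 1.93, 6.57 and 11.4 in tubular samples. PPARD (-0.24, -0.58 to 0.11), RXRA (-0.29, -0.67 to 0.09) and PPARGC1B (0.05, -0.36 to 0.45) did not pass the test, and the PPARGC1B difference changed sign in some alternatives.

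The 2 undissected HIGH PA embryos, both from cow66, were at the low end in PPARG. The ovoid one had 0 reads among 3138755, where 3 reads would be 0.956 CPM, and the spherical one had 1 read among 1407380 (0.711 CPM). The lowest extraembryonic library, ovoid and HIGH PA, had 1.03 CPM, and discs also reached 0. In the undissected embryos PPARD (30.9 and 26.3 CPM) and RXRA (25.5 and 36.9 CPM) lay within the range of the extraembryonic libraries. RXRB was at 44.6 and 34.1 CPM, against at most 32.9 in extraembryonic libraries and 42.1 in discs. Hypoblast markers summed to 609 and 976 CPM in them, within the range of the extraembryonic libraries (321 to 1423), though APOB and TF had no read. TTR had no read in them or in the disc and extraembryonic libraries. Their trophectoderm markers summed to 20548 and 16939 CPM. They entered no test.

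The media were compared to see whether the fatty acids around the maturing oocyte left a trace in these genes. Between HIGH PA and BASAL 0 genes were called in discs (0% of 11040; 1004 had an unadjusted p under 0.05, and DESeq2 called 0) and 0 in extraembryonic tissue (0% of 11114; 551 had an unadjusted p under 0.05, and DESeq2 called 0). No member was called in either tissue. The member with the lowest p was PPARGC1B in discs.

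PPARGC1B had 0, 11.3 and 21.2 CPM in HIGH PA discs (8), 11.9, 20.1 and 31.3 in BASAL discs (11), and 15.2, 16.6 and 17.6 in the 3 CONTROL discs. Of the 8 HIGH PA discs 4 were below every BASAL disc, and the disc at 0 was the shallowest library, where 3 reads would be 25.2 CPM. The log2 difference of HIGH PA from BASAL was -0.94 (SE 0.242, unadjusted p = 0.000657, adjusted p = 0.437), which ranked 14 by p among the genes tested.

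Cow07 mattered for this value. Its 3 HIGH PA discs had 12.0 to 21.2 CPM and the other 5 had 0 to 12.9, while its 2 BASAL discs lay within the range of the others. Without cow07 the difference was -1.42, PPARGC1B was called (adjusted p = 0.0288) and so were 97 genes in all. Adjusted p-values over the alternatives ran from 0.0288 to 1.00, and with cow as a block the difference was -0.70.

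In extraembryonic tissue PPARGC1B did not follow the disc. It had 7.20, 21.3 and 32.4 CPM in HIGH PA (10), 8.28, 19.8 and 41.6 in BASAL (13), and 17.4, 19.5, 19.6 and 20.4 in the CONTROL samples, with a HIGH PA difference of -0.01 (-0.41 to 0.39, adjusted p = 1.00). The effect of HIGH PA was higher in extraembryonic tissue than in discs by 0.86 (SE 0.351, unadjusted p = 0.0212), and it did not pass adjustment (adjusted p = 1; 0 of 12291 genes called).

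**Figure D4:**
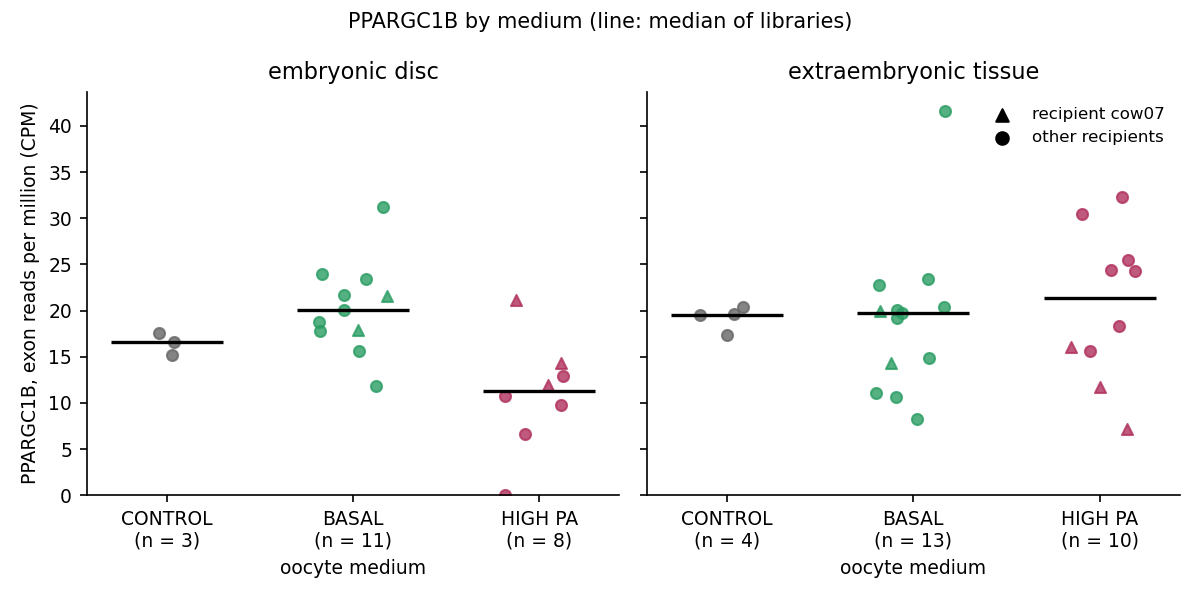
PPARGC1B in CPM by oocyte medium in discs (left) and extraembryonic tissue (right), each point a library, triangles from cow07 and lines at the medians. In discs the HIGH PA median is 11.3 CPM against 20.1 in BASAL, and in extraembryonic tissue the medians are 21.3 and 19.8.

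PPARG was not called between media. It had 0, 4.55 and 11.5 CPM in HIGH PA and 2.03, 8.20 and 14.4 CPM in BASAL discs (-0.55, -1.39 to 0.29). In extraembryonic tissue it had 1.03, 11.1 and 45.5 CPM in HIGH PA, a range reaching past BASAL at both ends, against 5.05, 20.6 and 35.6 CPM in BASAL (-0.21, -1.14 to 0.73). The direction there was not stable: with shape as a term it was 0.16. The 4 CONTROL samples had 15.4 to 33.2 CPM of PPARG in extraembryonic tissue, and the 3 CONTROL discs had 0, 9.33 and 14.7, of which the disc at 0 held 284848 reads.

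RXRA, PPARD, RXRB and PPARGC1A were not called between HIGH PA and BASAL. RXRA was at -0.29 in discs (-0.60 to 0.02), with 3 of 8 HIGH PA discs below every BASAL one, and at 0.15 in extraembryonic tissue (-0.24 to 0.54). PPARD was at 0.17 (-0.32 to 0.65) and 0.32 (-0.04 to 0.67), RXRB at 0.13 (-0.17 to 0.43) and 0.12 (-0.12 to 0.35), and PPARGC1A at -0.15 in both tissues with wide intervals (-1.27 to 0.97 and -0.70 to 0.39). These intervals do not show that the media act alike.

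Against CONTROL, edgeR called 0 genes (0%) in each comparison. Unadjusted p-values were under 0.05 for 379 genes (BASAL) and 465 (HIGH PA) in discs, and for 375 and 1075 in extraembryonic tissue, and DESeq2 called 0, 0, 1 and 0 genes. The lowest p-values of members came from extraembryonic HIGH PA samples, which share their CONTROL samples with the BASAL comparison. PPARD had 15.6, 27.7 and 36.0 CPM in HIGH PA, 8.87, 22.4 and 32.8 in BASAL, and 14.3, 15.2, 15.7 and 24.1 in CONTROL samples, with log2 differences from CONTROL of 0.66 (SE 0.245, unadjusted p = 0.0119, adjusted p = 0.478) and 0.34 (SE 0.231, adjusted p = 0.885). RXRB had 19.5, 27.0 and 32.4 CPM in HIGH PA, 16.9, 22.6 and 32.9 in BASAL, and a median of 20.0 in CONTROL samples (16.6 to 25.7), with differences of 0.41 (SE 0.160, unadjusted p = 0.0158, adjusted p = 0.478) and 0.29 (SE 0.152, adjusted p = 0.885). For both genes the HIGH PA and CONTROL ranges overlapped.

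**Figure D5:**
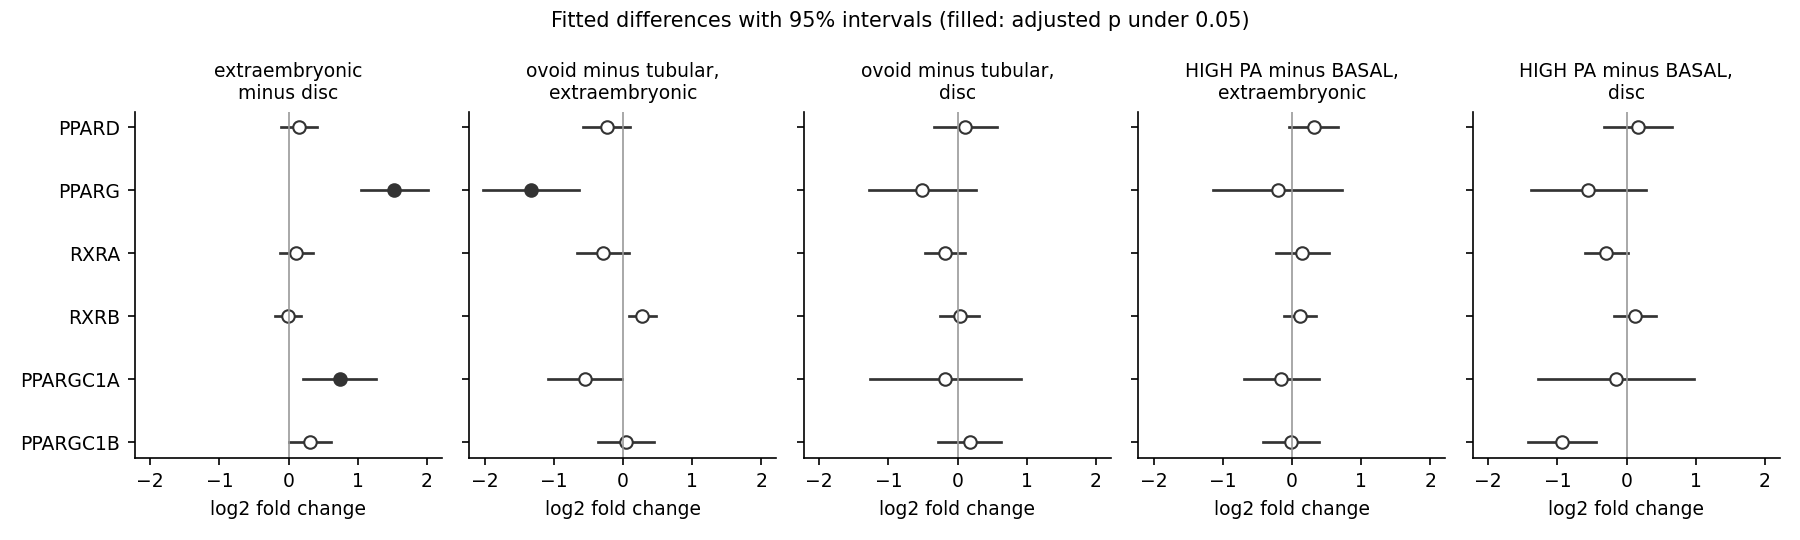
Fitted log2 fold changes (horizontal axis) of the 6 tested genes with 95% intervals, in 5 comparisons; filled points have an adjusted p under 0.05. PPARG (1.53) and PPARGC1A (0.74) are filled between tissues and PPARG (-1.33) between shapes in extraembryonic tissue, and no point is filled between media.

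Genes known as PPAR targets were examined next, in 2 lists. Of 17 tested genes of fatty acid oxidation, 5 were higher and 7 lower in extraembryonic tissue, with a median log2 difference of -0.17. Over all genes tested these shares were 24.2% and 31.5% and the median was -0.02, which also holds for the lists that follow. Genes that entered this fit only through their reads in discs had to be lower in extraembryonic tissue, so their direction is no finding. Of the lower genes, 2 of 7 of fatty acid oxidation did not pass the filter in the fit of media in extraembryonic tissue alone, and these numbers were 5 of 8 for lipid handling, 3 of 7 for ligand supply and 1 of 3 for the PGC-1 partners. HADHA, a subunit of the mitochondrial trifunctional protein, fell from a median of 57.5 CPM in discs to 29.8 in extraembryonic tissue (-0.60, SE 0.0874, adjusted p = 9.04e-07). ACSL1, which activates long-chain fatty acids, fell by 1.47 (SE 0.169, adjusted p = 1.60e-08). ACADVL, the very long-chain acyl-CoA dehydrogenase, rose by 0.70 (SE 0.111, adjusted p = 3.35e-06). CREB3L3, a liver transcription factor that works with PPARA, had reads in 16 of 22 discs and in 3 of 27 extraembryonic libraries. It did not pass the filter in extraembryonic tissue alone, so its direction is no finding.

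Of 18 tested genes of lipid handling, 7 were higher and 8 lower in extraembryonic tissue (median 0.11). The 4 of lowest p were all lower there. Of these, ANGPTL4 and ABCG1 did not pass the filter in extraembryonic tissue alone, so their direction is no finding. ME1, malic enzyme, fell from a median of 54.9 to 7.20 CPM (-2.45, SE 0.155, adjusted p = 4.28e-14). LPL, lipoprotein lipase, fell from 13.3 to 1.29 CPM (-2.69, SE 0.265, adjusted p = 6.79e-10). ANGPTL4, a widely used PPAR target that inhibits LPL, was at 1.82 CPM in the median disc and at 0 in the median extraembryonic library, and ABCG1, a sterol exporter, was at 0.857 and 0.

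In ovoid against tubular extraembryonic tissue, 0 genes of fatty acid oxidation were higher and 3 of 16 lower. EHHADH, an enzyme of peroxisomal oxidation, differed by -1.47 (SE 0.403, adjusted p = 0.0251) at a low level, with medians of 0.697 and 1.57 CPM, and HSD17B4 by -0.33 (SE 0.0881, adjusted p = 0.0234). The median of the list was 0.04, against 0.00 over all genes, of which 5.94% were higher and 5.41% lower. These shares also apply to the shape counts of the lists that follow. Among 15 genes of lipid handling (median -0.46), UCP2, a mitochondrial carrier, was higher in ovoid samples (0.93, SE 0.228, adjusted p = 0.0167). FABP5, a fatty acid carrier, and FADS1, a desaturase, were lower (-0.63, SE 0.177, adjusted p = 0.0270, and -1.39, SE 0.416, adjusted p = 0.0360). As for PPARG, 0 of these calls held with cow as a block or with lane as a term.

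Genes that act beside the receptors gave the following counts. Of 8 tested receptors that pair with RXR or share its ligands, 1 was higher and 3 were lower in extraembryonic tissue (median -0.22). RARG, a retinoic acid receptor, fell from a median of 24.8 to 1.57 CPM (-3.95, SE 0.260, adjusted p = 1.11e-13), RARA fell by 1.05 (SE 0.153) and NR1H3, an oxysterol receptor, by 1.31 (SE 0.177). VDR, the vitamin D receptor, rose by 0.92 (SE 0.233, adjusted p = 0.00133). The 4 called of 8 are close to the share of all genes (55.7%).

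Of 12 genes that make, bind or degrade ligands, 2 were higher and 7 lower in extraembryonic tissue (median -1.10). Of the 7 lower genes, 3 did not pass the filter in extraembryonic tissue alone, CRABP1 among them, so the median is in part set by that filter. The retinoid carrier CRABP2 and the retinal dehydrogenase ALDH1A1 were among the other lower ones. CRABP2 had a median of 34.1 CPM in discs and 2.72 in extraembryonic tissue (-3.13, SE 0.282, adjusted p = 1.11e-10). CRABP1, also a retinoid carrier, had reads in 19 of 22 discs and in 3 of 27 extraembryonic libraries, and its direction is no finding. PTGIS, prostacyclin synthase, whose product is a proposed PPARD ligand, fell by 0.86 (SE 0.139, adjusted p = 4.75e-06).

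Between shapes, 5.94% of all genes were higher and 5.41% lower in ovoid samples. With cow as a block or with lane as a term 0 genes were called. None of the shape calls in this list and the lists below therefore held in those fits. PTGS2, the inducible cyclooxygenase of the elongating trophectoderm, was the listed gene of lowest p. It had 137, 383 and 906 CPM in ovoid and 342, 1455 and 7231 CPM in tubular extraembryonic samples (-2.69, SE 0.518, adjusted p = 0.00467). Of 11 genes of this list (median -0.03) 1 was higher (CRABP2, 1.19, SE 0.330, adjusted p = 0.0266) and 2 were lower in ovoid samples, the second being ALDH1A1 (-1.47, SE 0.453, adjusted p = 0.0394). Of 9 partner receptors (median 0.34) 2 were higher, RARA (0.61, SE 0.152, adjusted p = 0.0176) and NR1H2 (0.54, SE 0.145, adjusted p = 0.0226), and 0 were lower.

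Of 19 tested coregulators, 4 were higher and 6 lower in extraembryonic tissue (median -0.04). NRIP1, a corepressor of nuclear receptors, fell by 0.94 (SE 0.235, adjusted p = 0.00119). LPIN1, a phosphatidate phosphatase that also binds PGC-1 proteins, fell by 1.74 (SE 0.244, adjusted p = 5.75e-07), whereas NCOA4 rose by 0.41 (SE 0.109, adjusted p = 0.00183). Between shapes PPRC1, the third gene of the PGC-1 family, was higher in ovoid samples (0.31, SE 0.0974, adjusted p = 0.0431) and LPIN1 lower (-1.05, SE 0.322, adjusted p = 0.0390), 1 of 19 in each direction (median -0.27).

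Of 14 PGC-1 partners and mitochondrial regulators, 5 were higher and 3 lower in extraembryonic tissue (median 0.04). ESRRA, the oestrogen-related receptor that PGC-1 proteins coactivate in many tissues, rose from a median of 82.6 to 94.4 CPM (0.52, SE 0.0954, adjusted p = 3.38e-05). Its relatives ESRRB and ESRRG fell by 3.08 and 3.95, from medians of 2.95 and 2.13 CPM in discs to 0.242 and 0. ESRRG did not pass the filter in the fit of media in extraembryonic tissue alone, so its direction is no finding. SIRT3, a mitochondrial deacetylase, fell by 2.00 (SE 0.311, adjusted p = 2.90e-06). Between shapes ESRRB was higher in ovoid samples (2.39, SE 0.689, adjusted p = 0.0306), at a median of 0.645 CPM. ESRRG was also called higher (2.47, SE 0.733, adjusted p = 0.0350), at a median of 0.155 CPM, which made 2 of 14 (median 0.19). ESRRG passed the filter in the shape fit but not in the fit of media in extraembryonic tissue, so this direction is no finding either. GABPA was lower in ovoid samples (-0.38, SE 0.114, adjusted p = 0.0351).

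Between HIGH PA and BASAL 0 genes of the 6 lists were called in either tissue. List medians ran from -0.08 to 0.31 in discs, and from -0.05 to 0.17 in extraembryonic tissue, on the log2 scale. The highest of them in each tissue was that of the partner receptors of RXR. In discs the genes of lowest p were, by list, HADHA (0.30) and ACAA2 (0.32) of fatty acid oxidation, PCK1 (-2.06) and LPL (0.69) of lipid handling, and NR4A1 (-1.05) and RARG (0.79) of the partner receptors. They were NCOA3 (-0.55) and PPRC1 (-0.19) of the coregulators, ESRRB (1.49) and SIRT3 (0.99) of the PGC-1 partners, and CRABP2 (0.98) and ALDH1A1 (0.60) of ligand supply. Among these PCK1, which encodes the gluconeogenic enzyme PEPCK, had the lowest p (SE 0.636, adjusted p = 0.451).

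In extraembryonic tissue the genes of lowest p were HADHB (0.34) and HADHA (0.31), LPL (-1.46) and ME1 (0.52), NR4A1 (-1.10) and RARG (0.72), SIRT1 (0.34), ESRRB (3.41) and TFB1M (-0.18), and PLA2G4A (2.65) and CYP26A1 (-0.68), in the same order of lists. PLA2G4A, a phospholipase that frees arachidonic acid, had the lowest p among them (SE 0.624, adjusted p = 0.207).

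Genes whose levels ran most like each member's were found among 9202 genes tested in both tissues, by the lower of the Pearson correlations of log2 CPM over 22 discs and over 27 extraembryonic libraries. The libraries share depth, lane, medium and shape differences, so these values only describe the table. PPARG ran with FAM213A (0.88 in discs and 0.91 in extraembryonic tissue), CAT (0.86 and 0.83) and SLC27A6 (0.83 and 0.88). CAT encodes catalase, the peroxisomal enzyme that breaks down hydrogen peroxide, and SLC27A6 encodes a fatty acid transport protein. PPARGC1B ran with CEP68 (0.87 and 0.80), TCEB3 (0.86 and 0.79) and CRIM1 (0.88 and 0.79).

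The likeness was lower for the other members. PPARGC1A ran with TBX20 (0.73 and 0.72), MARCH6 (0.72 and 0.72) and LCORL (0.67 and 0.72), PPARD with CIC (0.79 and 0.66), RAPGEF1 (0.86 and 0.65) and SKI (0.90 and 0.64). RXRA ran with ARHGEF37 (0.66 and 0.84), SORT1 (0.64 and 0.68) and ZSCAN25 (0.62 and 0.68), and RXRB with RAB40C (0.60 and 0.64), CLDN3 (0.59 and 0.63) and HSF1 (0.56 and 0.72). No member was among the genes most like another member. Between members the correlation of PPARG with PPARGC1B was 0.62 in discs and -0.22 in extraembryonic tissue, and that of RXRA with PPARGC1B was 0.31 and 0.62.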

How the data were processed

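Counts of reads in exons, of uniquely placed exon reads and of reads in introns were deposited by the authors for 53 libraries (paired reads of 50 bases from stranded mRNA libraries, per the labels). The submitters' processing notes name UMD3.1 and DESeq2 1.10.1; the aligner and the strand setting of the counting are not named in the labels or file headers. These values are unscaled whole numbers. Tests used edgeR 4.0.16 (quasi-likelihood test, trimmed-mean scaling, default filter on low counts) over all genes with Benjamini-Hochberg adjustment and a threshold of 0.05. Media were compared within each tissue with sex as a term (27 extraembryonic samples, the 1 of undetermined sex being left out), shapes with medium and sex as terms, and tissues with embryo as a block (23 embryos). Each SE was found from the log2 fold change and its F statistic. Fits were tested on simulated data.

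The members and gene lists were chosen with earlier results of these data known. Named genes were the 8 members, from each list up to 4 called genes of lowest p per comparison (or the 2 of lowest p where 0 were called; given for tissue, extraembryonic shape and HIGH PA against BASAL), and the 3 genes most like each tested member. Some results that this rule names are not reported here. The lists hold genes of fatty acid oxidation, lipid handling, RXR partner receptors, coregulators, PGC-1 partners and ligand supply. Alternatives were DESeq2 1.42.0, its size factors, unique reads, no filter, cow as a block, and each cow or CONTROL replicate left out in turn. Lane, the mark in column names and shapes without single cows were chosen after seeing the data. Disc and extraembryonic tissue were paired by embryo, per the labels. Analyses used R 4.3.3, Python 3.11.15 and matplotlib 3.10.9.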

Additional observations from a re-analysis of the deposited data

Results flagged for a closer look

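Levels of the 8 genes were checked for a sample far from the rest of its group in 22 combinations of gene and group, of which chance alone flags about 1 in 20. PPARD in extraembryonic CONTROL samples had 24.1 CPM in replicate 4, the only ovoid one, far from the other 3 (14.3 to 15.7). PPARA reached 0.772 CPM in extraembryonic HIGH PA replicate 5, from 3 reads, with 0.259 CPM next. RXRG had 0.0512 CPM in extraembryonic HIGH PA replicate 8, from 1 read, and 0 in the other 9 samples. Where all other samples are at 0 any read is flagged, so the rate of 1 in 20 does not apply. In the 2 undissected HIGH PA embryos, which entered no comparison, PPARD was at 26.3 and 30.9 CPM, above the highest CONTROL library (24.1).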

How the results depend on the processing

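Of 773 alternatives of single member values, 696 kept direction and side of the threshold, 12 lost and 6 gained a call, and 59 changed sign. None of the 4 called member results (PPARG in 3 comparisons, PPARGC1A between tissues) was among those that changed sign. Where a value below changed, the cause was not tested. Shallow discs and low counts of PPARA, RXRG and PPARGC1A limit precision. The lane term with spherical embryos could not be fitted for extraembryonic shape and was not run.

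Counts of all genes called moved as follows. HIGH PA against BASAL gave 4 in discs and 9 in extraembryonic tissue without a filter on low counts, and 2 in extraembryonic tissue with uniquely placed reads and 2 with the mark as a term. BASAL against CONTROL gave 1 in extraembryonic tissue with DESeq2. Shape in discs gave 16 with DESeq2 and 1 in BASAL embryos. Shape in extraembryonic tissue gave 1 in BASAL embryos, 0 in HIGH PA embryos, 21 with the mark and 0 with lane, each with 0 members. Tissues gave 3347 in HIGH PA and 3475 in CONTROL embryos and 392 with lane, with 1 member in BASAL or HIGH PA embryos and 0 with lane. The difference of the shape effect between tissues gave 66 with DESeq2 and 24 without a filter. Intron reads without a filter called 3 members.

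The embryo pairing was the main design between tissues, and without this block 5016 genes were called and PPARG differed by 1.51. With cow as a block 0 genes and 0 members were called between shapes in extraembryonic tissue. Values that changed sign under the cow block were, for HIGH PA against BASAL, PPARGC1A in discs (0.077) and PPARGC1B in extraembryonic tissue (0.093). Against CONTROL they were PPARGC1A in discs (-0.31 for BASAL, -0.23 for HIGH PA) and, in extraembryonic tissue, PPARG (0.87 and 0.10), RXRA (0.18) and PPARGC1B (-0.21) for BASAL. Between shapes they were PPARGC1B in discs (-0.23) and in extraembryonic tissue (-0.12). Among members the cow block changed no call other than PPARG by shape.

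Other changes of sign concerned members that were not called. Between media they were PPARGC1A in discs without the sex term (0.20), PPARG in extraembryonic tissue with shape as a term (0.16), and PPARGC1B there with the mark (0.11) and with DESeq2's size factors (0.019, and -0.041 for BASAL against CONTROL). Between shapes they were RXRB (-0.029) and PPARGC1A (0.55) in BASAL discs, PPARD (-0.33) in HIGH PA discs, PPARGC1B in HIGH PA extraembryonic tissue (-0.42) and with lane (-0.23), and RXRA with the mark (0.10). Between tissues RXRB was at 0.063 with DESeq2, 0.020 without the shallow libraries, 0.011 without a filter, 0.077 in BASAL and 0.093 in HIGH PA embryos and 0.053 with lane. RXRA was at -0.056 in BASAL embryos, and PPARD at -0.055 in CONTROL embryos and -0.17 with lane.

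Leaving out 1 cow or 1 library at a time gave ranges. For HIGH PA against BASAL, 0 to 97 genes and 0 to 1 members were called in discs (97 without cow07) and 0 to 10 genes in extraembryonic tissue; between shapes, 0 to 4 genes in discs and 3 to 4062 genes with 0 to 2 members in extraembryonic tissue (3 without cow813, 4062 without cow13, 2944 without cow72, 138 without cow07 and 59 without cow66). For HIGH PA against BASAL, PPARD ran from -0.053 to 0.34 and PPARGC1A from -0.65 to 0.29 in discs. In extraembryonic tissue PPARGC1A ran from -0.31 to 0.13, PPARGC1B from -0.13 to 0.18, RXRA from -0.052 to 0.35 and PPARG from -0.61 to 0.23. For BASAL against CONTROL, RXRA ran from -0.055 to 0.32 and PPARG from -0.35 to 0.50 in discs, and in extraembryonic tissue PPARG from -0.27 to 0.13, RXRA from -0.079 to 0.011 and PPARGC1B from -0.042 to 0.041. For HIGH PA against CONTROL, RXRA ran from -0.35 to 0.033 in discs and PPARGC1B from -0.055 to 0.029 in extraembryonic tissue. Between shapes, RXRB ran from -0.036 to 0.096, PPARGC1A from -0.75 to 0.11 and PPARD from -0.035 to 0.28 in discs, and PPARGC1B from -0.13 to 0.30 in extraembryonic tissue. Without BASAL disc replicate 12 the interaction of HIGH PA with tissue was 0.047 for RXRB and -0.28 for PPARGC1A.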
